A study of Mus musculus with 24 samples.

Results

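Liver in which both Trib1 and Cebpa were floxed was compared with liver in which Cebpa alone was floxed, in the 6 libraries labelled DKO (double knockout) and the 6 labelled Cebpa-KO of a bulk RNA sequencing study of 24 male C57BL/6 mice. The members are these 12 of 24 libraries, and the features are the 19810 of 54432 genes with a mean of at least 1 normalized count over all 24. The groups were wild type (WT), Trib1 Flox/Flox (Trib1-KO), Cebpa Flox/Flox (Cebpa-KO) and Trib1;Cebpa Flox/Flox (DKO), with 6 mice in each from 2 cohorts. All mice, WT included, received adeno-associated virus encoding Cre recombinase at 20 to 21 weeks of age, and whole liver was taken 4 weeks later from chow-fed mice fasted for 4 h. The promoter that drives Cre is not given in the sources used here. Because Cebpa is floxed on both sides, the comparison asks for differences that go with the floxed Trib1 allele in liver that has lost Cebpa.

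Trib1 encodes a Tribbles pseudokinase, a protein with a kinase fold that acts as an adaptor. It brings the transcription factor C/EBPα, the product of Cebpa, to the ubiquitin ligase COP1, which marks C/EBPα for degradation. In hepatocytes C/EBPα drives genes of plasma protein secretion, lipid synthesis and drug metabolism. COP1 has other substrates, among them the AP-1 protein c-Jun and ETS factors.

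Values are normalized estimated counts, group values are mean ± SD with n = 6, and log2 differences from limma, on the log2(value + 1) scale, carry their standard error. A gene was called when its limma adjusted p, over all 19810 genes, was under 0.05. The deposited columns carry a group, a letter and a number (E1 to F3 for Cebpa-KO, G1 to H3 for DKO). The letters follow the groups, so a difference that goes with the letters and one that goes with the genotype cannot be told apart. The 12 libraries held 23385895 to 26009469 normalized counts. Differences from the mean of the other libraries of the group had a root mean square of 0.645 to 0.793 on the log2 scale, highest for library F3 (0.767) in Cebpa-KO and H3 (0.793) in DKO. All 12 hepatocyte markers were detected, with a mean log2 level of 15.9 ± 0.12 in Cebpa-KO and 16.0 ± 0.19 in DKO. In RNA from whole liver, fewer cells of a type and less RNA per cell cannot be told apart.

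Cebpa stood at 82.2 ± 17.5 in Cebpa-KO and 82.4 ± 18.1 in DKO, against 6019 ± 1057 in WT. The difference between both groups was 0.01 ± 0.16 (adjusted p = 0.998), with a 95% interval from -0.33 to 0.34. Trib1 went against its label. It ranged from 215 to 646 in Cebpa-KO (median 287) and from 286 to 1077 in DKO (median 769), against 1224 ± 204 in WT and 4237 ± 358 in the libraries labelled Trib1-KO. The highest Cebpa-KO library, F3 (646), and the lowest DKO library, H1 (286), made the groups overlap. The difference was 1.13 ± 0.24 (adjusted p = 0.046), and leaving out any 1 of 10 libraries ended the call (adjusted p up to 0.13). Loss of the floxed stretch of Trib1 could not be checked, since the table gives a single value for each gene. The groups are therefore named below by their labels, as the libraries labelled DKO and labelled Trib1-KO.

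Between the libraries labelled DKO and Cebpa-KO, 40 of 19810 genes (0.202%) were called. Of these, 16 (0.0808%) were higher in DKO and 24 (0.121%) were lower, 11 and 14 of them by at least 2-fold. The same model called 4498 genes (22.7%) for the floxed Trib1 allele where Cebpa is not floxed, in Trib1-KO against WT. The difference between these 2 differences, the interaction, was called for 2490 genes (12.6%). An unadjusted p under 0.05 was reached by 1878 genes (9.48%) between DKO and Cebpa-KO. The count was 18 with only the 12 libraries in the fit, 13 of them among the 40. It was 63 without library F3, with 36 higher, and 18 without library G2.

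The intervals were within 2-fold for most abundant genes. Of 9998 genes with a mean of at least 100 in the 12 libraries, 9425 (94.3%) had a 95% interval that lay within 2-fold in either direction. Over all genes the share was 63.3%, with a median standard error of 0.23. The groups did not overlap for 141 genes (0.712%), which include 28 of the 40 called.

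**Figure D1:**
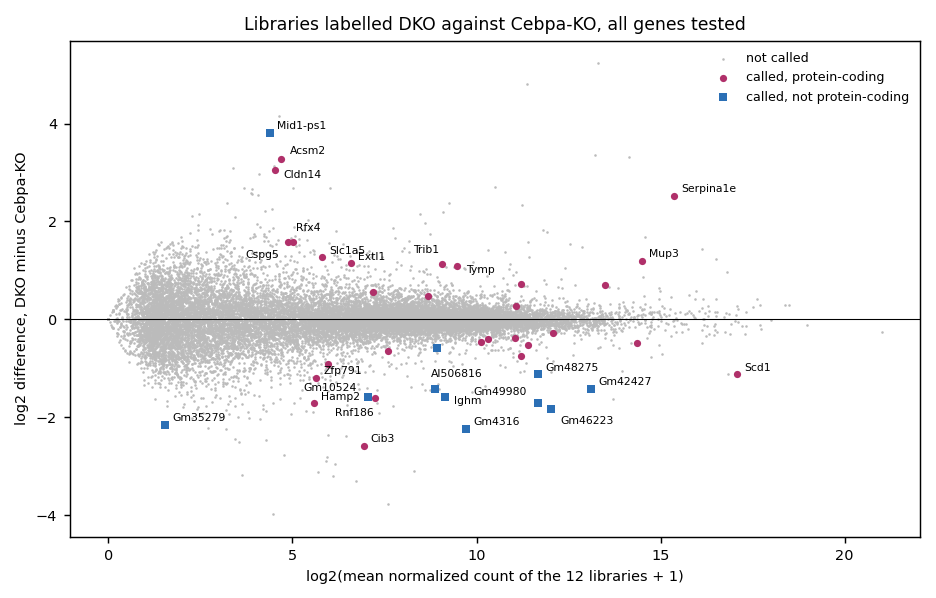
Each point is 1 of 19810 genes, placed by its level (horizontal axis, log2 of the mean normalized count in the 12 libraries plus 1) and its log2 difference between the libraries labelled DKO and Cebpa-KO (vertical axis). Magenta circles are called protein-coding genes and blue squares other called genes; names are given beyond a difference of about 1, and all but 1 of the blue squares lie below 0.

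Tymp, which encodes thymidine phosphorylase, an enzyme of thymidine breakdown, was the protein-coding gene with the smallest adjusted p among those higher in DKO. In Cebpa-KO it ranged from 308 to 609 (median 441) and in DKO from 752 to 1136 (median 968). All 6 libraries labelled DKO lay above all 6 of Cebpa-KO. The difference was 1.09 ± 0.15, or 2.13-fold (adjusted p = 6.6e-04), and it was called in all 24 alternative fits. WT stood at 824 ± 160. Tymp lies on chromosome 15 at 89371931 to 89377039 (GRCm38, minus strand). The gene Sco2, a cytochrome c oxidase assembly factor, overlaps it there on the same strand, so that reads could be split between both, and stood at 0.62 ± 0.14 (adjusted p = 0.066).

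Rfx4, a transcription factor of the RFX family, rose from 14.9 ± 4.44 in Cebpa-KO to 47.6 ± 19.4 in DKO. No libraries overlapped, with at most 20.1 in Cebpa-KO and at least 28.6 in DKO. The difference was 1.58 ± 0.25 (adjusted p = 0.0043), called in 23 of 24 alternative fits (adjusted p up to 0.080). WT was higher than both, at 106 ± 32.9.

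Acsm2 and Cldn14 had the largest rises among the protein-coding genes called. Acsm2, a mitochondrial medium-chain acyl-CoA synthetase, ranged from 0.266 to 11.1 in Cebpa-KO (median 1.84) and from 8.02 to 163 in DKO (median 26.8). Library H3 was the highest and H2 (8.02) lay within the Cebpa-KO range. The difference was 3.27 ± 0.55 (adjusted p = 0.0067), and Acsm2 stood at 25.5 ± 8.11 in WT. Cldn14, the tight junction protein claudin 14, ranged from 0 to 8.84 in Cebpa-KO (median 3.5) and from 5.04 to 107 in DKO (median 31.4). Its difference was 3.04 ± 0.52 (adjusted p = 0.0075), against a WT level of 146 ± 38.3. Both genes were not called in the fit of the 12 libraries alone, where the adjusted p was 0.15 for Acsm2 and 0.17 for Cldn14.

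Steroid and aldehyde metabolism gave 2 abundant genes. Hsd11b1, the enzyme that regenerates active glucocorticoid inside cells, stood at 1740 ± 264 in Cebpa-KO, 2971 ± 884 in DKO and 8724 ± 904 in WT. It was higher in DKO by 0.73 ± 0.14 (adjusted p = 0.020), with library H1 (1807) inside the Cebpa-KO range, which ended at 2123. The call was lost without E1, F1 or G2 (adjusted p = 0.064, 0.060 and 0.068). Hsd11b1 was called in 20 of 24 alternative fits, with an adjusted p up to 0.19. Aox3, a molybdenum-containing aldehyde oxidase, ranged from 7705 to 9836 in Cebpa-KO (median 8619) and from 10407 to 18090 in DKO (median 14523). Its groups did not overlap, and it rose by 0.70 ± 0.12 (adjusted p = 0.0091), while WT stood at 19229 ± 1326. Aox3 was called in 23 of 24 alternative fits (adjusted p up to 0.064).

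Serpina1e, a secreted member of the α1-antitrypsin family of protease inhibitors, spread widely in DKO. It ranged from 3355 to 18991 in Cebpa-KO (median 8973) and from 12006 to 146741 in DKO (median 76896). Libraries G1 (12006) and H2 (16194) lay within the Cebpa-KO range, while G2, G3 and H3 stood at 113356 to 146741. Serpina1e was higher in DKO by 2.53 ± 0.50 (adjusted p = 0.029), and WT stood at 238928 ± 60036. The call was lost when any 1 of 6 libraries was left out (adjusted p up to 0.093). It held in 17 of 24 alternative fits, with an adjusted p up to 0.24. Mup3, a major urinary protein that carries pheromones, stood at 13827 ± 5251 in Cebpa-KO, 32460 ± 14540 in DKO and 146167 ± 25077 in WT. The call of its difference of 1.20 ± 0.25 (adjusted p = 0.035) was lost when any 1 of 8 libraries was left out (adjusted p up to 0.10). Mup3 was called in 14 of 24 alternative fits, with an adjusted p up to 0.24. Serpina1e has near-identical family members, and Mup3 belongs to a multigene family, so their reads may be split with other members. The sum of the 5 Serpina1 genes stood at 359503 ± 55060 in Cebpa-KO and 495457 ± 112051 in DKO, a log2 difference of 0.45. That sum did not pass (exact permutation p = 0.028, adjusted 0.14, n = 6 against 6).

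The other genes called higher were expressed at lower levels or differed by less. Slc1a5, a glutamine transporter, stood at 31.4 ± 8.46 in Cebpa-KO and 78 ± 27.4 in DKO, a difference of 1.27 ± 0.27 (adjusted p = 0.046). Cspg5, a membrane proteoglycan, stood at 13.7 ± 3.33 and 43.5 ± 11.5, a difference of 1.58 ± 0.32 (adjusted p = 0.034). Neither pair of groups overlapped. Extl1, an exostosin-like glycosyltransferase, stood at 59.9 ± 29.9 and 131 ± 49.9, with library F3 (121) as the single Cebpa-KO library above the DKO minimum of 95.5. Bbs10, a chaperonin-like protein linked to cilia, was higher by 0.56 ± 0.12 (adjusted p = 0.042). Ciapin1, a factor of cytosolic iron-sulfur cluster assembly, was higher by 0.47 ± 0.09 (adjusted p = 0.015), and H13, the signal peptide peptidase, by 0.27 ± 0.06 (adjusted p = 0.043). The calls of Slc1a5, Cspg5, Extl1, Bbs10 and H13 were each lost when any of 8 to 11 single libraries was left out, and that of Ciapin1 without G2 (adjusted p = 0.055). Ciapin1 was called in 22 of 24 alternative fits (adjusted p up to 0.099). Mid1-ps1, a pseudogene on chromosome Y chosen after its values were seen, was listed at 0 in all 6 Cebpa-KO and all 6 WT libraries and at 0 to 101 in DKO, so no fold is given. Its call was lost when any 1 of 9 libraries was left out (adjusted p up to 0.13).

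**Figure D2:**
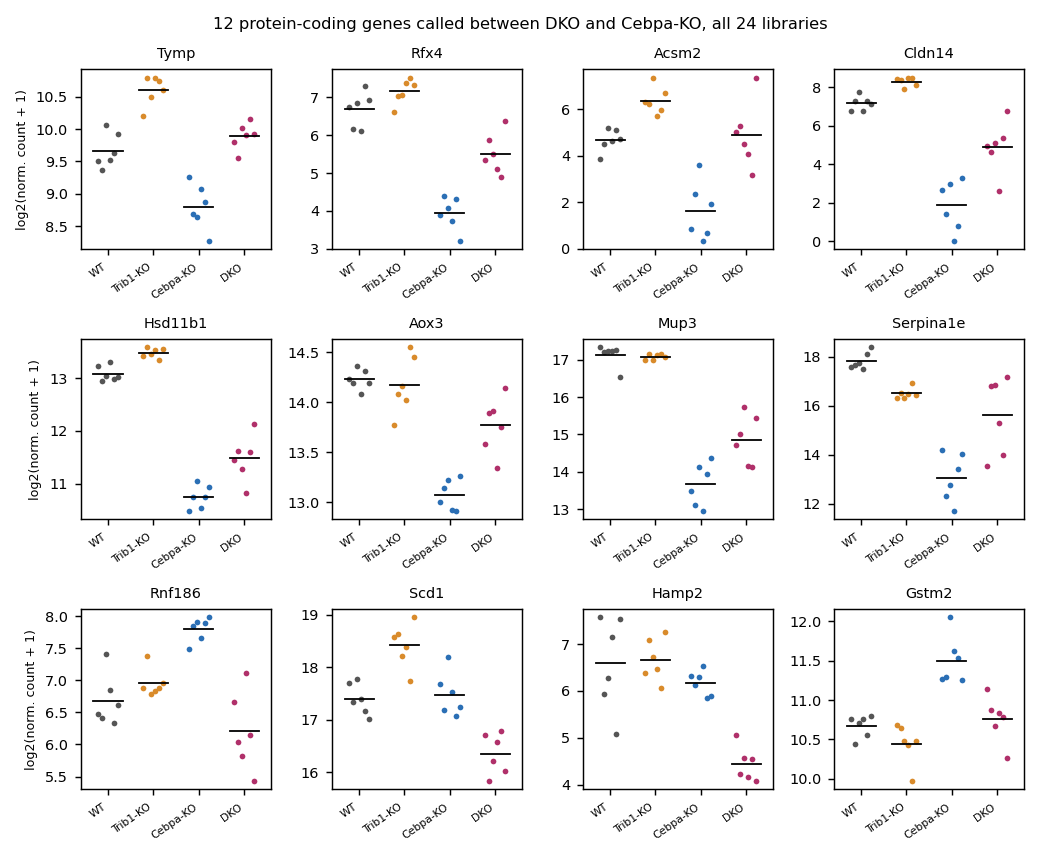
Each panel shows 1 called protein-coding gene, with the log2 of the normalized count plus 1 on the vertical axis, 1 point per library and a black line at the mean of each labelled group of 6. Tymp, Rfx4, Aox3, Rnf186, Scd1, Hamp2 and Gstm2 show DKO points that do not overlap the Cebpa-KO points; in Serpina1e, DKO spreads from 12006 to 146741 normalized counts.

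Among the genes lower in DKO, Rnf186, a membrane-bound RING ubiquitin ligase, had the smallest adjusted p of the protein-coding genes. It ranged from 179 to 252 in Cebpa-KO (median 233) and from 42.1 to 137 in DKO (median 67.2). The groups did not overlap, the difference was -1.60 ± 0.22 (adjusted p = 6.6e-04), and it was called in all 24 alternative fits. WT stood at 105 ± 33.8 and the libraries labelled Trib1-KO at 124 ± 21.1.

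Scd1, the stearoyl-CoA desaturase that makes monounsaturated fatty acids, had the highest normalized counts of the genes called. It ranged from 137424 to 297634 in Cebpa-KO (median 171236) and from 58230 to 113107 in DKO (median 86402), with no overlap. Its difference was -1.12 ± 0.21, or 0.459 of the Cebpa-KO level (adjusted p = 0.017). WT stood at 175160 ± 36659 and the libraries labelled Trib1-KO at 359963 ± 97021. The call was lost without E1 (adjusted p = 0.051) or G2 (adjusted p = 0.064). Scd1 was called in 21 of 24 alternative fits (adjusted p up to 0.099).

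Hamp2, a second hepcidin-type peptide gene beside the iron hormone Hamp, stood at 71.8 ± 13.2 in Cebpa-KO and 21.4 ± 6.13 in DKO, without overlap. The difference was -1.72 ± 0.32 (adjusted p = 0.020), lost without E1, F1 or G2 (adjusted p = 0.052, 0.058 and 0.061). WT ranged widely, at 114 ± 66.6. The sum of Hamp and Hamp2 stood at 10427 ± 2421 in Cebpa-KO and 10903 ± 2274 in DKO and did not pass (exact permutation p = 0.69, adjusted 0.76, n = 6 against 6). Nearly all of that sum is Hamp, so it does not bear on the call of Hamp2.

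Glutathione transferases of the mu class, which conjugate electrophiles, gave 2 calls. Gstm2 ranged from 2439 to 4242 in Cebpa-KO and from 1233 to 2256 in DKO, a difference of -0.74 ± 0.14 (adjusted p = 0.020) that was lost without F1 (adjusted p = 0.058). Gstm6 ranged from 2846 to 3588 and from 1743 to 2529, a difference of -0.52 ± 0.09 (adjusted p = 0.015) that stayed called without any single library. Of 24 alternative fits, Gstm2 was called in 22 (adjusted p up to 0.14) and Gstm6 in 23 (adjusted p up to 0.066). The sum of the 7 mu-class genes stood at 141826 ± 25081 and 121259 ± 39012 and did not pass (exact permutation p = 0.31, adjusted 0.48, n = 6 against 6). Gstm2 and Gstm6 are a small part of that sum, so it does not bear on their calls.

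Sardh, Bckdhb and Ebp, enzymes of mitochondrial amino acid breakdown and of sterol synthesis, had differences under 0.5 with small errors. Sardh, sarcosine dehydrogenase, stood at 24654 ± 2175 in Cebpa-KO and 17677 ± 1657 in DKO, a difference of -0.48 ± 0.08 (adjusted p = 0.010) called in all 24 alternative fits. Bckdhb, a subunit of the branched-chain ketoacid dehydrogenase, stood at 1447 ± 102 and 1091 ± 111, a difference of -0.41 ± 0.09 (adjusted p = 0.043). Ebp, a sterol isomerase of cholesterol synthesis, stood at 4740 ± 279 and 3914 ± 248, a difference of -0.28 ± 0.06 (adjusted p = 0.043). In these 3 genes no libraries of the groups overlapped. The calls of Bckdhb and Ebp were lost when any 1 of 11 and of 9 libraries was left out (adjusted p up to 0.12 for each).

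Another 6 protein-coding genes were lower in DKO. Cib3, a calcium and integrin binding protein, stood at 207 ± 170 in Cebpa-KO and 35.1 ± 31.8 in DKO, with E1 (552) and H1 (99.3) far above the rest of their groups. Its difference was -2.58 ± 0.52 (adjusted p = 0.034), lost when any 1 of 10 libraries was left out. The difference of Scara3, a class A scavenger receptor, was -0.91 ± 0.18 (adjusted p = 0.024), and that of Zfp791, a zinc finger protein, -1.19 ± 0.26 (adjusted p = 0.046). Pawr, a pro-apoptotic regulator, had a difference of -0.64 ± 0.13 (adjusted p = 0.034), Phldb2, a pleckstrin homology protein, of -0.45 ± 0.09 (adjusted p = 0.022), and Cryz, a quinone oxidoreductase, of -0.37 ± 0.08 (adjusted p = 0.033). These 5 genes also lost their calls without 1 of 4 to 10 single libraries (adjusted p up to 0.12).

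Ighm, the constant region of the IgM heavy chain, is a marker of B cells and was the single cell type marker called. It ranged from 343 to 1404 in Cebpa-KO (median 905) and from 212 to 338 in DKO (median 248), with 307 ± 61.4 in WT. The difference was -1.58 ± 0.26 (adjusted p = 0.0047). It was called in 23 of 24 alternative fits, with an adjusted p up to 0.12. Of 16 B and plasma cell markers tested, the other 15 were not called. Cd79a stood at 23.9 in Cebpa-KO and 23.4 in DKO (-0.01 ± 0.26), Ighd at 45.3 and 35.5 (-0.34 ± 0.28) and Igkc at 310 and 303 (0.05 ± 0.27). The mean log2 level over the 16 markers was 4.99 to 5.96 in Cebpa-KO and 5.13 to 5.56 in DKO.

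Genes without a protein product were among those lower in DKO. Of 2949 long non-coding genes tested, 7 were called, all lower in DKO, and of 14944 protein-coding genes 15 were called higher and 14 lower. Over all 19810 genes, 0.202% were called, 0.0808% higher and 0.121% lower, and a difference between classes was not tested. Of 1444 pseudogenes, 2 were lower and 1 higher. These genes have predicted or clone names outside the naming rule and were chosen after their values were seen.

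Gm4316, a long intergenic RNA gene on chromosome 8 (123165255 to 123178765, GRCm38, plus strand), had the smallest adjusted p of all genes. It ranged from 557 to 1970 in Cebpa-KO (median 1485) and from 183 to 415 in DKO (median 274). The lowest Cebpa-KO library was F3. The difference was -2.23 ± 0.24 (adjusted p = 4.8e-05). WT stood at 316 ± 67.1, and the libraries labelled Trib1-KO at 2029 ± 591.

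A further 6 genes had this order of mean levels, low in WT and DKO and high in the libraries labelled Trib1-KO and Cebpa-KO. Gm42427 on chromosome 5 (44137980 to 44143271, plus strand, 1 exon) stood at 12735 ± 2002 in Cebpa-KO, 4951 ± 1560 in DKO, 4869 ± 1014 in WT and 12708 ± 2189 in Trib1-KO. Its difference was -1.41 ± 0.18 (adjusted p = 4.2e-04). AI506816, also on chromosome 5 (23698296 to 23712667), stood at 665 ± 68.9 in Cebpa-KO and 264 ± 112 in DKO, against 330 ± 101 in WT and 1024 ± 208 in Trib1-KO.

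Gm10524 and Gm49980, both on chromosome 18, had differences of -1.58 ± 0.23 (adjusted p = 0.0017) and -1.70 ± 0.25 (adjusted p = 0.0019). Gm46223 is a processed pseudogene and Gm48275 a long intergenic RNA gene, neighbours on the minus strand of chromosome 10 (50422134 to 50422808 and 50425044 to 50425330). Their differences were -1.83 ± 0.29 (adjusted p = 0.0043) and -1.12 ± 0.22 (adjusted p = 0.026). Library H2 was the highest of DKO for both, with 4587 for Gm46223 and 3833 for Gm48275. Of these 7 genes, 6 were called in all 24 alternative fits, and Gm48275 lost its call without E1, E2, F2, G1 or G2 (adjusted p up to 0.072). The order of the means follows the column letters, with A, B, G and H low and C to F high, and the part of that in the result was not tested. Malat1 (-0.02) and Neat1 (-0.20), abundant nuclear long non-coding RNAs, were not called.

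**Figure D3:**
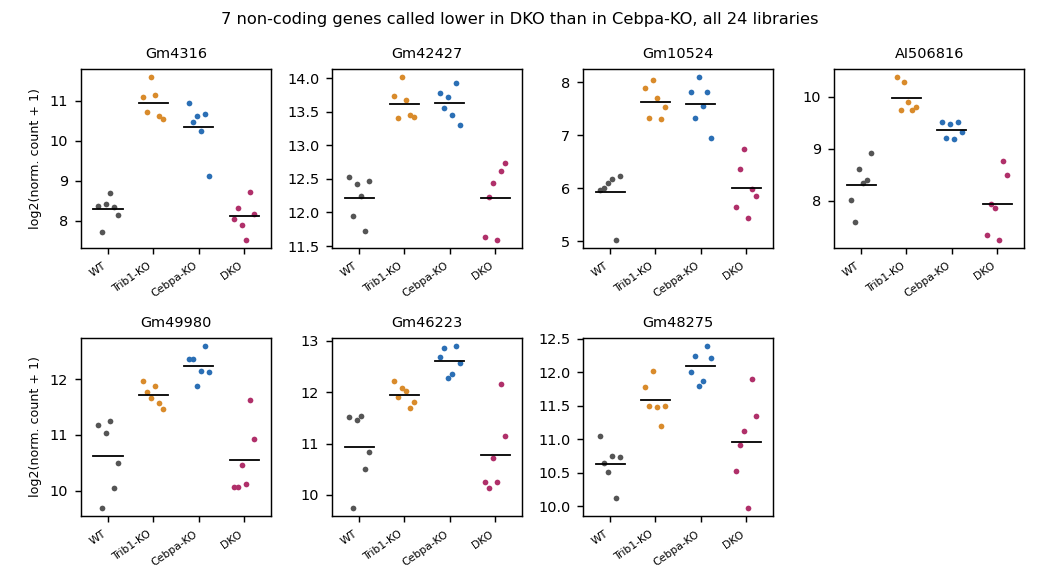
Each panel shows 1 of 7 non-coding genes, with the log2 of the normalized count plus 1 on the vertical axis, 1 point per library and a black line at the mean of each labelled group of 6. Means are low in WT and DKO and high in Trib1-KO and Cebpa-KO, with DKO points among the Trib1-KO points for Gm46223 and Gm49980 (library H2) and Gm48275 (H2 and H3); Gm4316 stood at 316 in WT, 2029 in Trib1-KO, 1387 in Cebpa-KO and 283 in DKO.

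Gm35279, a long intergenic RNA gene with few counts, was listed at 0 in all 6 DKO libraries and at 1.83 to 7.43 in Cebpa-KO. Gm49011, a processed pseudogene on chromosome 14, had a difference of -0.58 ± 0.12 (adjusted p = 0.034). That call was lost when any 1 of 8 libraries was left out (adjusted p up to 0.10).

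Promoters of the called genes were read from the RefSeq table (GRCm38.p6), as the 250 bases before a single start site per gene. Other start sites of a gene were not searched. The table held 28 of the 40 genes. The letters TTGCNNAA, a C/EBP recognition core, were found on either strand in 3 of these 28 promoters, of Gstm2, Serpina1e and Zfp791, and in 1058 of 12786 promoters of tested genes (8.28%). The AP-1 letters TGANTCA were found in 2, of Rnf186 and Hamp2, and in 648 of 12786 (5.07%). No promoter of a called gene held both motifs. Tymp and Rnf186 are shown as the protein-coding genes with the smallest adjusted p in each direction, and Serpina1e and Gstm2 as genes with C/EBP letters that differ although Cebpa is floxed in both groups. Each is given 5′ to 3′ on the gene's strand, without the bases next to the start site that GENCODE annotates as exon, and capitals mark a C/EBP or AP-1 match.
Tymp, chr15:89377040-89377286, minus strand: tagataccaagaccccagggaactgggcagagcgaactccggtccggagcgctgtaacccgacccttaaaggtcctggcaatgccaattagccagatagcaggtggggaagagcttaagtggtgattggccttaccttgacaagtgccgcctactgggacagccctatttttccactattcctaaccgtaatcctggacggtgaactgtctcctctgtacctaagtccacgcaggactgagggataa
Rnf186, chr4:138966869-138967111, plus strand: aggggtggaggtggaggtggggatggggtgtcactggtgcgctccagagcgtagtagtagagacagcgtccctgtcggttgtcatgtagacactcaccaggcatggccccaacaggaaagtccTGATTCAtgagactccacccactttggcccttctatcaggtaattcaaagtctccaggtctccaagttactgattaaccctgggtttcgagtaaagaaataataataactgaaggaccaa
Serpina1e, chr12:103956899-103957147, minus strand: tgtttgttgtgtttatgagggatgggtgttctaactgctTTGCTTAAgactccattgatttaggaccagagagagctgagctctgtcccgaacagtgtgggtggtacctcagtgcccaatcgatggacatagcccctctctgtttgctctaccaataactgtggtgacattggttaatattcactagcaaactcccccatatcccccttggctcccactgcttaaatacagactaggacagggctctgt
Gstm2, chr3:107986454-107986670, minus strand: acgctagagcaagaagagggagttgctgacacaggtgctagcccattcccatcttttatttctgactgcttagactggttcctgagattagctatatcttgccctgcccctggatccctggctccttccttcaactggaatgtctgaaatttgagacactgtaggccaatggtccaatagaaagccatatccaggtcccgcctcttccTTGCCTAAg
The C/EBP letters begin 42 bases before the start site in Gstm2 and 211 bases before it in Serpina1e. The AP-1 letters begin 127 bases before the start site in Rnf186. The window of Tymp held neither. A match is a run of letters and not a shown binding site.

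The same floxed Trib1 allele is also compared where Cebpa is not floxed, in the libraries labelled Trib1-KO against WT, which share no library with DKO and Cebpa-KO. Both comparisons use the same pooled spread of each gene, so their calls are not independent. Of the 40 called genes, 22 were also called there, 13 in the same direction and 9 in the opposite one. Over all 19810 genes, 4498 (22.7%) were called there, 2330 higher and 2168 lower. The 13 are 32.5% of the 40 and 0.289% of the 4498. That count was 7 with all genes above 0 tested, 20 without F3, 6 without E1, F2 or G2, 7 without E2 or F1 and 8 without E3. Over all 19810 genes, log2 differences in both comparisons had a Pearson r of 0.03 and a Spearman rho of 0.03, across genes that are not independent replicates.

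Of the 13 genes called in the same direction, 6 were higher, namely Acsm2, Slc1a5, Trib1, Tymp, Hsd11b1 and Ciapin1. None of these 6 was called in the interaction. Tymp was higher by 0.94 ± 0.15 in Trib1-KO against WT (adjusted p = 2.9e-05) and by 1.09 ± 0.15 in DKO against Cebpa-KO. Ciapin1 was higher by 0.49 ± 0.09 and 0.47 ± 0.09, with an interaction of -0.02 ± 0.12 (adjusted p = 0.95). Slc1a5 was higher by 1.29 ± 0.27 and 1.27 ± 0.27, with an interaction of -0.02 ± 0.38 (adjusted p = 0.98).

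The 7 lower in both were Cib3, Scara3, Ighm, Sardh, Gstm6, Ebp and Gm49011. Cib3 had a difference of -2.52 ± 0.52 in Trib1-KO against WT and of -2.58 ± 0.52 in DKO against Cebpa-KO, and Scara3 of -1.06 ± 0.18 and -0.91 ± 0.18. Neither had a called interaction. In Sardh, Gstm6, Ebp and Gm49011 the interaction was called. Sardh differed by -1.11 ± 0.08 in Trib1-KO against WT and by -0.48 ± 0.08 in DKO against Cebpa-KO (interaction 0.63 ± 0.12, adjusted p = 6.5e-04). Ebp differed by -1.01 ± 0.06 and -0.28 ± 0.06 (interaction 0.74 ± 0.08, adjusted p = 6.1e-07), so that these 2 falls were smaller where Cebpa was floxed.

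The 9 genes called in opposite directions were the 7 non-coding genes above with Scd1 and Bckdhb. The interaction was called for all 9, which follows in part from their choice by opposite signs. Scd1 was higher in Trib1-KO than in WT by 1.02 ± 0.21 (adjusted p = 6.7e-04) and lower in DKO than in Cebpa-KO (-1.12 ± 0.21). Its interaction was -2.14 ± 0.30 (adjusted p = 1.4e-05). Bckdhb was higher by 0.32 ± 0.09 (adjusted p = 0.0081) and lower in DKO (-0.41 ± 0.09), with an interaction of -0.73 ± 0.12 (adjusted p = 1.7e-04). Gm4316 had the largest interaction of the called genes, -4.90 ± 0.34 (adjusted p = 4.2e-10).

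The last 18 of the 40 were not called between Trib1-KO and WT. For 12 of them the interaction was called, against 12.6% of all genes, so the differences with and without floxed Cebpa were themselves different. The 18 were chosen by the difference between DKO and Cebpa-KO, so that count follows in part from the choice. Serpina1e stood at -1.33 ± 0.50 in Trib1-KO against WT, with an interaction of 3.85 ± 0.71 (adjusted p = 4.8e-04), and Cspg5 at -0.67 ± 0.32, with an interaction of 2.25 ± 0.45 (adjusted p = 0.0012). Rnf186 stood at 0.27 ± 0.22, with an interaction of -1.87 ± 0.31 (adjusted p = 1.3e-04), and Hamp2 at 0.07 ± 0.32, with an interaction of -1.78 ± 0.46 (adjusted p = 0.0098). For Cldn14, Extl1, H13, Gstm2, Phldb2 and Mid1-ps1 the interaction was not called.

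**Figure D4:**
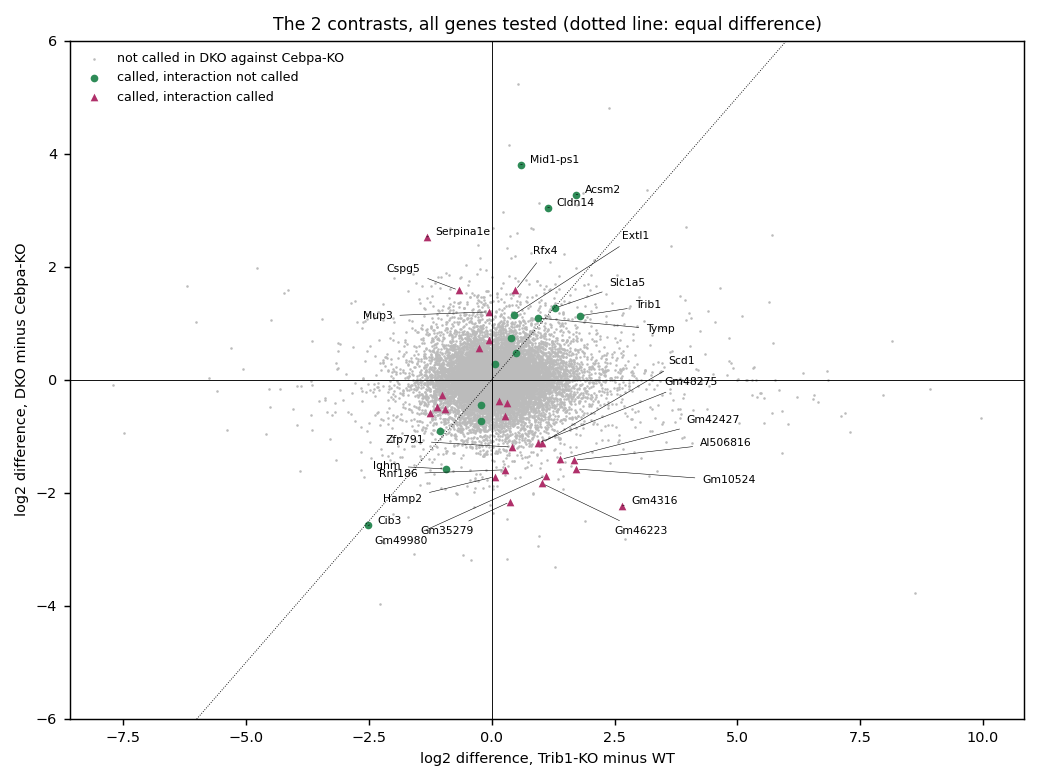
Each point is 1 of 19810 genes, with its log2 difference of the libraries labelled Trib1-KO from WT on the horizontal axis and between those labelled DKO and Cebpa-KO on the vertical axis. Green circles are genes called on the vertical axis without a called interaction and magenta triangles those with one; Slc1a5, Tymp and Cib3 lie near the dotted line of equal differences and the 7 non-coding genes lie to the lower right.

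Genes that differed by at least 2-fold in Trib1-KO against WT had medians near 0 between DKO and Cebpa-KO. The 1138 genes higher by at least 2-fold in Trib1-KO had a median of 1.60 there and of 0.02 in DKO against Cebpa-KO. The 553 genes lower by at least 2-fold had medians of -1.42 and -0.07. Of these 1691 genes, 1015 were called in the interaction, against 12.6% of all genes. The interaction contains the difference by which these genes were chosen, so that count follows in part from the choice. A 95% interval within 2-fold between DKO and Cebpa-KO was found for 792 of the 1691, against 63.3% of all genes.

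Gene lists were described by counts and medians, with the median over all genes at -6.2e-04 and 40 of 19810 genes called (0.202%). The Tribbles and COP1 ligase list had 1 called member of 10, Trib1. Cop1 stood at -0.16 ± 0.07 (adjusted p = 0.47) and Trib3 at -0.29 ± 0.18 (adjusted p = 0.67). Of 16 genes that encode COP1 substrates 0 were called. In the C/EBP family 0 of 7 were called. Cebpb stood at 444 in Cebpa-KO and 669 in DKO (0.62 ± 0.26, adjusted p = 0.46), and Cebpd at 53.9 and 104 (1.06 ± 0.40, adjusted p = 0.38).

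The acute phase proteins, secreted by liver in inflammation, had the highest median of the pathway lists apart from the major urinary proteins. Of 28 members 26 had a difference above 0, the median was 0.62, and 16 had an unadjusted p under 0.05, but 0 were called. That 0 rested on single libraries: 5 members (Saa3, Hp, Orm1, Orm2 and Lbp) were called higher without library F3, 3 (Saa3, Orm1 and Orm2) without H1 and 1 (Saa3) without G1. Leaving out any other single library gave 0. Orm1, an orosomucoid, had the largest value. It ranged from 12.4 to 2414 in Cebpa-KO (median 78.7) and from 69 to 66375 in DKO (median 4950), against 14464 ± 4225 in WT. Its difference was 5.23 ± 1.18 (adjusted p = 0.066), and 6.12 ± 1.11 without F3 (adjusted p = 0.013). Libraries F3 of Cebpa-KO and H3 and H2 of DKO were the highest of their groups. The same 3 libraries led for Saa3, a serum amyloid A gene, with 152, 821 and 586 normalized counts. Saa3 differed by 1.86 ± 0.42 (adjusted p = 0.066). The mean log2 level of 10 neutrophil markers was also highest in F3 (3.84), H3 (3.89) and H2 (3.55), and at 2.16 to 2.97 in the other 9 libraries. The part of that in these values was not tested.

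For the major urinary proteins, 18 of 22 members had a difference above 0, with a median of 0.98 and 1 called, Mup3. Without library H2, 5 were called higher, Mup1, Mup3, Mup14, Mup16 and Mup22, while Mup3 was lost and 0 were called without any 1 of 8 others. Their sum stood at 425246 ± 91155 in Cebpa-KO and 679046 ± 257011 in DKO and did not pass (exact permutation p = 0.032, adjusted 0.14, n = 6 against 6). Of 23 male-biased liver genes 19 were above 0 (median 0.50), with Serpina1e as the 1 called. Of 32 female-biased genes 25 were below 0 (median -0.36), with Hamp2 as the 1 called. These signs held under quantile normalization and under scaling without the major urinary protein genes.

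Lipid lists had few called members. An unadjusted limma p under 0.05 was reached by 6 of 22 genes of fatty acid and triglyceride synthesis, 5 of 25 of cholesterol synthesis and 10 of 29 of lipoprotein metabolism. Over all genes that share was 9.48%. Of 22 genes of fatty acid and triglyceride synthesis, Scd1 was the 1 called, and 19 were below 0 (median -0.18). Of 25 genes of cholesterol synthesis, Ebp was the 1 called (median -0.02), and the 95% interval lay within 2-fold for 24. Among 29 genes of lipoprotein metabolism 0 were called (median 0.14). Apob, the structural protein of very-low-density lipoprotein, stood at 156326 ± 14542 in Cebpa-KO and 172575 ± 9126 in DKO, a difference of 0.15 ± 0.07 (adjusted p = 0.53) with a 95% interval from -0.0019 to 0.29. Sort1, the sorting receptor sortilin, stood at 403 ± 76.6 and 560 ± 85.1, a difference of 0.48 ± 0.13 (adjusted p = 0.16) with an interval from 0.21 to 0.75.

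Other metabolic lists had at most 2 called members. In conjugating enzymes these were Gstm2 and Gstm6 of 43, in xenobiotic metabolism Aox3 of 56, and in the urea cycle and amino acid catabolism Bckdhb of 35. The lists of bile acid synthesis (26 genes), gluconeogenesis and glycolysis (24), fatty acid oxidation (28) and hepatocyte transcription factors (28) had 0. In that order, 7, 5, 9 and 5 of their genes had an unadjusted limma p under 0.05, against 9.48% of all genes. All 35 oxidative phosphorylation genes had an interval within 2-fold, and 31 were below 0 (median -0.12) with 0 called.

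**Figure D5:**
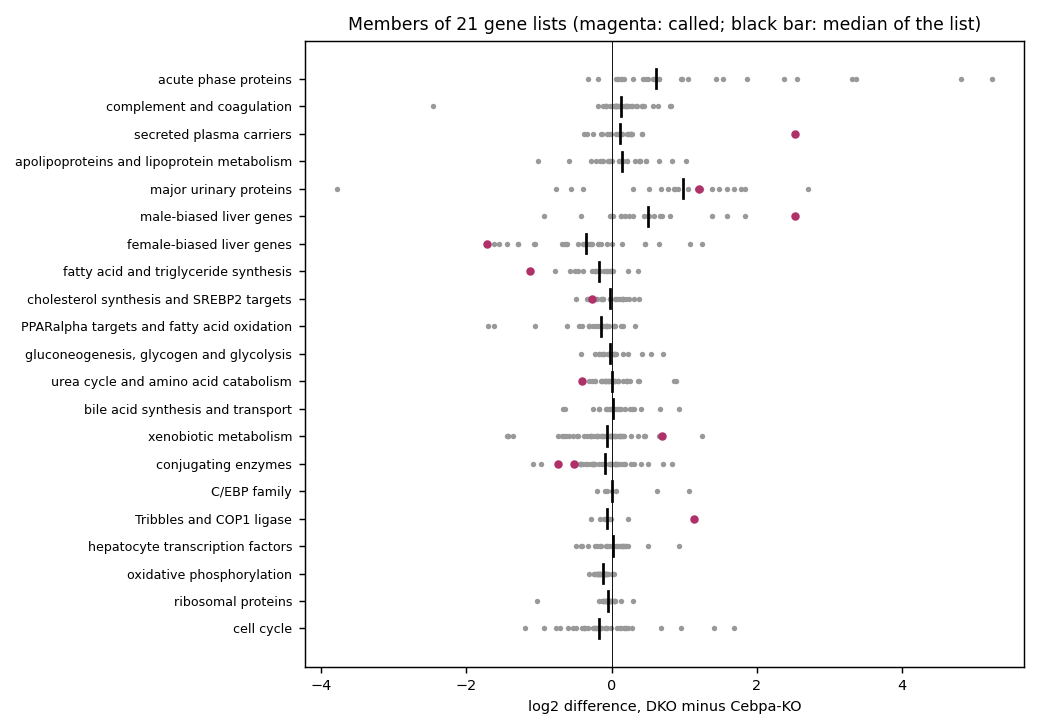
Each row is 1 of 21 gene lists, each point a member at its log2 difference between the libraries labelled DKO and Cebpa-KO (horizontal axis), magenta and larger where called, and the black bar is the median of the list. The bars of the acute phase proteins (0.62) and major urinary proteins (0.98) lie right of 0 and that of the female-biased genes (-0.36) left, with most lists near 0.

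Markers of other cell types were compared as mean log2 levels and as counts. Of 11 cell type lists, 10 had 0 called members and 1, the B and plasma cell markers, had Ighm. The Kupffer cell score was 8.47 ± 0.11 in Cebpa-KO and 8.55 ± 0.31 in DKO. The cholangiocyte score was 6.19 ± 0.12 and 5.95 ± 0.11 (exact permutation p = 0.0087, adjusted 0.13, n = 6 against 6). Erythroid markers were below 0 in 9 of 9, with a score of 7.04 ± 0.41 and 6.63 ± 0.36 (exact permutation p = 0.095, adjusted 0.21, n = 6 against 6). Over 31 family sums and scores, 0 had an adjusted exact permutation p under 0.05, and the smallest was 0.067 for the Scd sum. Its unadjusted p of 0.0022 is the smallest that 6 against 6 libraries can give. A sum that alone reached this smallest p could therefore not pass after adjustment over 31.

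Near the threshold, 25 genes had an adjusted p from 0.05 to 0.07, 15 of them higher and 10 lower in DKO. Nr0b2, the bile acid-induced repressor SHP, stood at 305 ± 136 in Cebpa-KO and 539 ± 86.4 in DKO (0.92 ± 0.21, adjusted p = 0.064). Igf2, an imprinted fetal growth factor, stood at 27.1 ± 14 and 5.66 ± 3.15 (-2.03 ± 0.47, adjusted p = 0.069). Myc, which lies 2.34 Mb from Trib1 on chromosome 15, stood at 345 ± 242 and 78.1 ± 25.9 (-1.77 ± 0.40, adjusted p = 0.069), with E1 (76) and F1 (89.2) inside the DKO range. Myc was called without E1 or F1, and Nr0b2 without E1, F1 or H2. Of 47 genes tested within 5 Mb of Trib1, Trib1 was the 1 called. In Trib1-KO against WT, 23 of the 47 were called, against 22.7% of all genes, and a cause was not tested. The genes named near the threshold were chosen after their values were seen.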

How the data were processed

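The authors' deposited table gives 1 value per gene and library, a signal in the sense of estimated counts divided by a size factor. The submitters' processing notes name Salmon, DESeq2 and GRCm38.p6, with no versions or roles, and the division by size factors is read from the values. Libraries were made with a stranded mRNA kit per the labels' protocols. Because the values are not counts, no count model was used. Values were transformed as log2(value + 1) and 1 mean for each of 4 groups was fitted over 24 libraries, using limma (version 3.58.1, R version 4.3.3) and its trend option. Only genes whose values averaged 1 or more were tested. P values were adjusted by Benjamini-Hochberg over 19810 genes, and the threshold was 0.05. The fit was tested on simulated data.

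Of 54432 identifiers, 54050 (99.3%) were found in GENCODE M21, which gave coordinates on GRCm38 and gene types. Columns name a group but no mouse, so no cohort term was fitted. The limma p-values use the spread between libraries within groups of 6, pooled over all 4 groups, WT and Trib1-KO included. Depth is limited to the normalized totals given, since whole reads could not be recovered. Sums and marker scores were compared with exact 2-sided permutation tests, adjusted over 31. Lists were described by counts, with no set test.

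Genes were named by a rule: Trib1, Cebpa, Apob and Sort1; the 12 largest rises and 12 largest falls among called genes that averaged 10 or more and had a symbol that is no predicted-gene, clone or pseudogene name and all 6 DKO libraries on one side of the Cebpa-KO mean; up to 4 called members of each list; and up to 6 genes per direction called in the interaction or called the same way in Trib1-KO against WT. Other named genes were chosen after their values were seen. The comparison and the lists were chosen with earlier results of these data known. Alternatives were other pseudocounts, filters on low values, scalings, weights, a block for the column number, a robust fit, the 12 libraries alone and each library left out.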

Additional observations from a re-analysis of the deposited data

Results flagged for a closer look

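Among 86 groups of 6 libraries tested (43 genes in 2 groups), 13 held a library whose gap to the nearest other library exceeded Dixon's 95% limit, where chance gives about 5%. In Cebpa-KO these were Slc1a5 in E3 (15.5), Extl1 in F3 (120.6), Cib3 in E1 (552), Scara3 in E2 (46.0), Pawr in F1 (176), Trib1 in F3 (646) and Cebpa in E2 (50.5). In DKO they were Cspg5 in G1 (22.4), Extl1 in H3 (229), Bbs10 in H3 (230.3), Cib3 in H1 (99.3), Bckdhb in H3 (1310) and Trib1 in H1 (286). Library H3 held 3 of the 13, and was also the farthest of DKO from the other libraries of its group.

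The difference of DKO from Cebpa-KO itself differed from that of Trib1-KO from WT in 27 of these 43 genes, by the limma interaction term. Over all genes the interaction was called for 2490 of 19810 (12.6%). Most of the 43 were chosen because DKO differed from Cebpa-KO, and some by their interaction, so the count of 27 follows in part from the choice. The interaction was above 0 for Serpina1e (3.85), Cspg5 (2.25), Mup3 (1.25), Cebpa (1.17), Rfx4 (1.10), Bbs10 (0.83), Aox3 (0.75), Ebp (0.74), Gm49011 (0.68), Sardh (0.63), Gstm6 (0.43) and Apob (0.36). For Cebpa the value comes from the fall in the libraries labelled Trib1-KO, where it stood at 2668 against 6019 in WT.

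The interaction was below 0 for 15 genes. The non-coding ones were Gm4316 (-4.90), Gm10524 (-3.29), AI506816 (-3.09), Gm46223 (-2.85), Gm42427 (-2.81), Gm49980 (-2.80), Gm35279 (-2.54) and Gm48275 (-2.06). The protein-coding genes were Scd1 (-2.14), Rnf186 (-1.87), Hamp2 (-1.78), Zfp791 (-1.60), Pawr (-0.90), Bckdhb (-0.73) and Cryz (-0.53).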

How the results depend on the processing

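All 40 called genes kept their direction in all 24 alternatives, and 10 stayed called in each alternative that could test them. The count of 40 called genes (16 higher, 24 lower, 13 also called the same way in Trib1-KO against WT) fell to 25 (8 higher, 7 the same way) with all genes above 0 tested. It fell to 18 (4 higher, 14 lower) with the 12 libraries alone. Array weights gave 25 higher. Leaving out libraries F3 and H3, an alternative chosen after seeing the data, gave 54 called, 28 higher and 20 the same way. Leaving out 1 library at a time gave 18 (without G2) to 63 (without F3) called, 6 to 36 higher, 12 to 27 lower and 6 to 20 the same way, and 16 of the 40 stayed called in all 12 such fits. With the column number as a replicate block 61 genes were called, 34 of them higher. Libraries with the same number had a mean correlation of 0.03 (-0.07 to 0.19), and 5 of 12 correlated best with their own number, so the numbers are not taken to pair the libraries. Scaling without the major urinary protein genes moved the median of all genes in Trib1-KO against WT to 0.24 and the interaction count from 2490 to 3499. Under quantile normalization Trib1 was not called. The cause of these changes was not tested. Depth limits genes with few counts, whose intervals were wide.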
